A study of Homo sapiens with 34 samples.

Results

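The comparison described here was between H1 cells carrying an shRNA against ZNF503 and WT H1 cells after 2 days of differentiation toward the cardiac lineage. H1 is an established human embryonic stem cell (ESC) line. Its members are 4 of the 34 RNA-seq libraries of the study, 2 from ZNF503 shRNA cells and 2 from WT cells, taken by the gene, day and replicate in their labels. The ZNF503 shRNA cells were infected with a lentivirus, selected with puromycin and kept as the line with the strongest knockdown by real-time PCR among several hairpins, so the group stands for 1 hairpin. The WT cells, labelled wild-type, carried a lentiviral shRNA against GFP or an empty vector according to the methods, and which of these each library came from is not given. All cells received CHIR99021, an inhibitor of GSK3β that switches on WNT signalling, for the first 24 hours in a medium without FGF2, TGFβ and insulin, and then the WNT inhibitor IWP2, which the protocol lists for days 2 through 5. NKX2-5 shRNA and ZEB2 shRNA cells of the same day, 2 libraries each, were made in the same way and serve as further reference lines.

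During this step pluripotent cells pass through a state that resembles the primitive streak of the embryo, from which mesoderm and endoderm both arise and which is called mesendoderm. WNT and NODAL signals switch on T-box and homeobox regulators such as TBXT (brachyury), EOMES, MIXL1 and GSC, and the cells then take on mesoderm regulators such as MESP1 or endoderm regulators such as SOX17 while the pluripotency genes are lost. ZNF503 encodes a zinc finger protein of the NET family, which acts as a transcriptional repressor together with TLE (Groucho) corepressors.

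The 4 libraries held 28272228 and 14630405 counts in WT cells and 87850810 and 20897109 counts in ZNF503 shRNA cells. Levels are given in CPM, the usual scaling of counts to a common library size, here with TMM factors, with replicate 1 before replicate 2. They are compared only between libraries, not between genes. A fold change is ZNF503 shRNA over WT on the log2 scale, with its standard error (SE) and a p adjusted over the 16521 genes tested of 23189 symbols. A gene was called at 4-fold and 10% FDR, and counts at 5% FDR with no fold threshold are given beside the calls. The paper calls the replicates biological, and the labels do not say whether they came from separate cultures. The p-values therefore measure the spread between libraries, estimated over all 8 day 2 libraries in 4 groups. In bulk RNA, fewer cells of a type and less RNA per cell cannot be told apart. Replicates of each group differed by more than sampling noise, so none was taken for the same library.

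ZNF503 itself was not detectably lower at day 2. Its level was 1.16 and 2.12 CPM in WT cells and 1.01 and 1.85 CPM in ZNF503 shRNA cells, so that the libraries of the groups overlapped. The fold change was -0.23 (SE 0.40, adjusted p = 0.714), and the remaining level was 87.2% ± 36.2 of WT (SD, n = 2). It was at 1.44 and 1.72 CPM in NKX2-5 shRNA cells and at 1.43 and 1.62 CPM in ZEB2 shRNA cells. At day 0 all 4 libraries of WT and ZNF503 shRNA cells lay between 0.102 and 0.153 CPM. The day 2 libraries therefore do not check the label, and the group is named by it. At day 6, when the WT level had reached 8.62 and 9.13 CPM, ZNF503 shRNA cells held 0.598 and 0.635 CPM, a fold change of -3.84 (adjusted p = 6.25e-07). The gene lies at chr10:77157588-77161522 in GRCh37. Among its neighbours KCNMA1 was at 0.856 and 0.861 CPM in WT and 0.489 and 0.522 CPM in ZNF503 shRNA cells (adjusted p = 0.305), COMTD1 was higher (fold change 0.82) and DLG5 lower (fold change -0.63).

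Of the 16521 genes tested, 135 were called higher in ZNF503 shRNA cells (0.817%) and 328 were called lower (1.99%). At 5% FDR with no fold threshold, 2171 genes were higher (13.1%) and 2272 were lower (13.8%), and the median over all genes was -0.01. Calls at 4-fold thus fell more often on the lower side, whereas at 5% FDR the numbers in each direction were close. At 2-fold and 10% FDR, 521 genes were higher (3.15%) and 986 lower (5.97%).

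**Figure D1:**
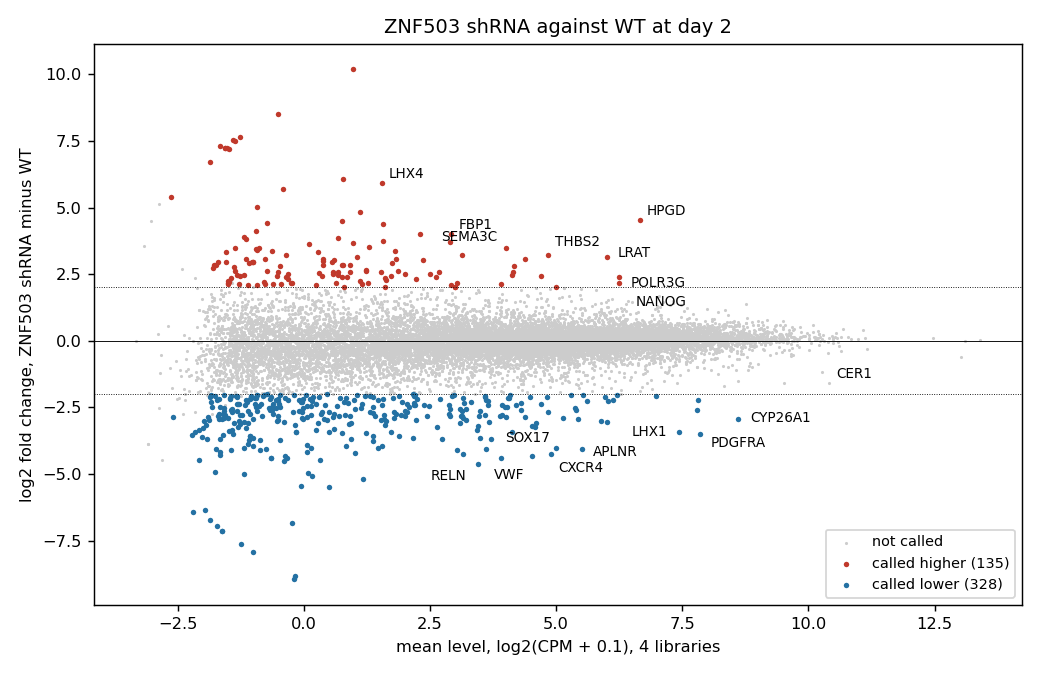
Each point is 1 of the 16521 genes tested, with the mean level of the 4 libraries as log2(CPM + 0.1) on the horizontal axis and the log2 fold change of ZNF503 shRNA over WT at day 2 on the vertical axis. Red points are the 135 genes called higher and blue points the 328 called lower, the dotted lines mark 4-fold, and the labelled genes are described in the text.

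The regulators of the primitive streak were the first group examined. Of the 19 tested of 20 in this list, 14 were lower at 5% FDR and 1 was higher, beside 13.8% and 13.1% of all genes, and 7 were called lower. The median of the list was -1.15 beside -0.01 over all genes. Both groups carried the marks of mesendoderm: TBXT, the brachyury gene, was at 0.361 and 0.28 CPM in WT and 0.218 and 0.211 CPM in ZNF503 shRNA cells at day 0. At day 2 it was at 54.6 and 57.2 CPM in WT and 30.6 and 41.5 CPM in ZNF503 shRNA cells. TBXT was thus switched on in all 4 libraries, and the level in ZNF503 shRNA cells stayed below WT (fold change -0.64, SE 0.16, adjusted p = 0.00752).

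EOMES, a T-box factor needed for mesoderm and endoderm, was at 599 and 655 CPM in WT and 275 and 365 CPM in ZNF503 shRNA cells, a fold change of -0.97 (SE 0.11). MIXL1, a homeobox gene of the streak, was at 102 and 106 against 37.5 and 56.1 CPM (fold change -1.16, SE 0.17). GSC, the marker of the anterior streak, was at 72.3 and 67.1 against 36.2 and 38.3 CPM (fold change -0.91, SE 0.11). For each of these 3 genes both ZNF503 shRNA libraries lay below both WT libraries, and the genes stayed well expressed. The gap was far wider for LHX1, a LIM homeobox gene of the anterior streak, which was at 294 and 336 CPM in WT and 24.6 and 35.2 CPM in ZNF503 shRNA cells (fold change -3.42, SE 0.15, adjusted p = 1.32e-09).

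Genes of the mesoderm that leaves the streak showed some of the widest gaps. PDGFRA, a receptor of early mesoderm, was at 415 and 431 CPM in WT and 34.4 and 40.7 CPM in ZNF503 shRNA cells (fold change -3.50, SE 0.09, adjusted p = 1.02e-11). MESP1, the regulator of the earliest cardiac mesoderm, was at 6.4 and 6.82 against 0.545 and 0.57 CPM (fold change -3.57, SE 0.30). APLNR, the apelin receptor of migrating mesoderm, was at 78.9 and 92.8 against 4.41 and 6.46 CPM (fold change -4.05, SE 0.21). In all 3 the groups were apart by about an order of magnitude and their libraries did not overlap. TBX6, a regulator of presomitic mesoderm, had a fold change of -2.40, EVX1, a homeobox gene of the posterior streak, of -2.99, and MESP2 of -2.16, all past 5% FDR. The 1 member that was higher was NKX1-2, a homeobox gene of the posterior streak and neural axis, at 1.03 and 1.19 CPM in WT and 9.4 and 8.45 CPM in ZNF503 shRNA cells (fold change 3.03). SP8 was level, at 46.9 and 50.8 against 49 and 53 CPM, and its close relative SP5, a direct WNT target, was at 80.5 and 84 against 56.5 and 67.5 CPM (fold change -0.41, adjusted p = 0.0306).

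**Figure D2:**
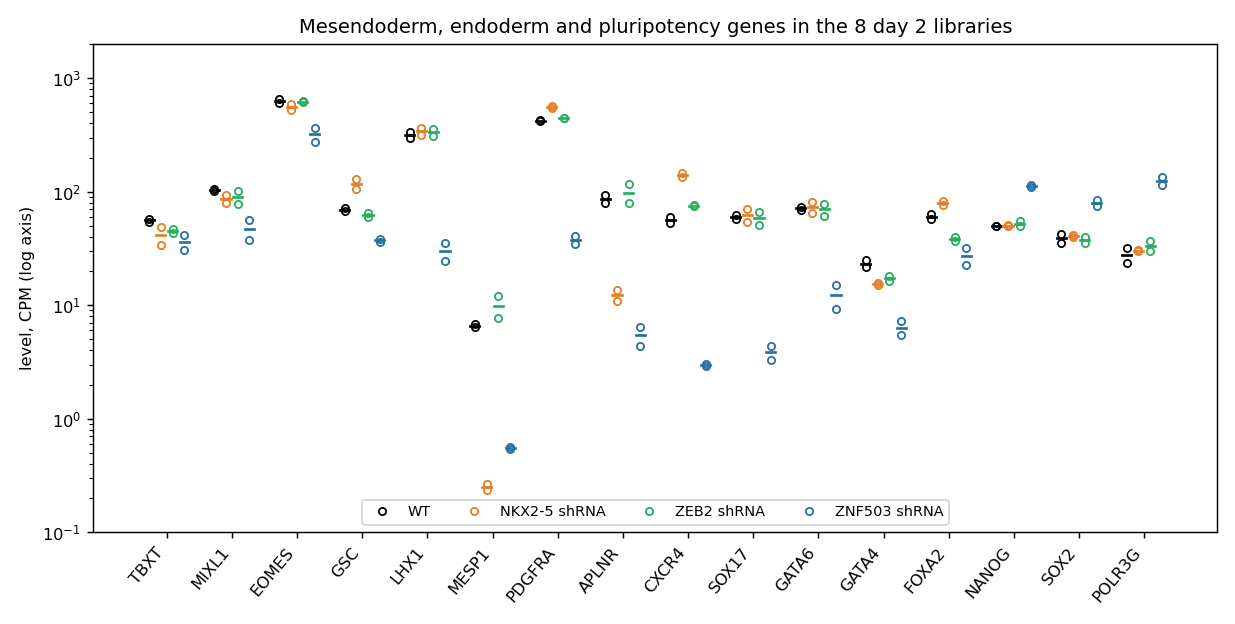
Levels in CPM on a log axis for 16 genes in the 8 libraries of day 2, with an open circle for each library and a bar for the mean of each group of 2. The ZNF503 shRNA libraries (blue) sit below both WT libraries (black) for the 13 genes from TBXT to FOXA2 and above them for NANOG, SOX2 and POLR3G, while MESP1 and APLNR are low in NKX2-5 shRNA cells (orange) as well.

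Of the early cardiac and lateral mesoderm genes, 11 of 19 tested were lower at 5% FDR and 1 was higher. Among all genes these shares were 13.8% and 13.1%, and the median of the list was -1.88. The lists share members, so their counts and medians partly repeat the same genes. MESP1, MESP2, PDGFRA and HAND1 are in the streak list too, and GATA4 and GATA6 in the endoderm list below. LHX1 and FOXA2 are in both the streak and the endoderm list, and other lists overlap as well. TBX3, a T-box gene of the early heart field, was at 19.7 and 19.2 CPM in WT and 1.73 and 2.33 CPM in ZNF503 shRNA cells (fold change -3.33, SE 0.20). FOXF1, a forkhead gene of lateral mesoderm, was at 2.19 and 1.72 against 0.182 and 0.38 CPM, and ISL1, a LIM homeobox gene of the second heart field, was at 2.02 and 2.58 against 0.318 and 0.19 CPM, both low in level at this day and called lower (fold changes -3.07 and -2.98). SNAI2 had a fold change of -1.94, TBX20 of -1.36 and SMARCD3, a subunit of the BAF chromatin remodelling complex of the heart, of -0.91. TBX5, a T-box gene of the first heart field, was the 1 member that was higher, at a low level of 0.205 and 0.397 CPM in WT and 2.79 and 1.42 CPM in ZNF503 shRNA cells (fold change 2.98, SE 0.51). The signalling gene BMP4, the GATA factor gene GATA5 and the VEGF receptor gene KDR were among the 7 that did not pass the test, with KDR at 221 and 212 against 203 and 218 CPM. NKX2-5, MYOCD and TBX2 were too low to be tested at day 2.

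The definitive endoderm list gave 12 of 15 tested genes lower at 5% FDR and none higher, beside 13.8% and 13.1% of all genes. Its median was -1.90, and 7 of the 12 were called lower. The 3 tested members that did not pass were KIT, FOXA1 and RBP4. CXCR4, the chemokine receptor used to sort definitive endoderm, was at 52.7 and 60.4 CPM in WT and 3.03 and 2.9 CPM in ZNF503 shRNA cells (fold change -4.24, SE 0.12, adjusted p = 2.87e-11). SOX17, the regulator that defines this lineage, was at 57 and 62.6 against 3.32 and 4.42 CPM (fold change -4.01, SE 0.18). PRDM1, a repressor active in anterior endoderm, was at 19.2 and 19.8 against 1.91 and 2.61 CPM (fold change -3.18, SE 0.18). In these 3 genes both ZNF503 shRNA libraries lay far below both WT libraries.

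The GATA factors of endoderm and cardiac mesoderm were lower too. GATA6 was at 73.7 and 69.2 CPM in WT and 9.32 and 15.1 CPM in ZNF503 shRNA cells (fold change -2.60, SE 0.19). GATA4 was at 21.7 and 24.9 against 5.5 and 7.21 CPM (fold change -1.90, SE 0.17). FOXA2, a pioneer factor of endoderm, was less affected, at 57.1 and 63.1 against 22.7 and 32 CPM (fold change -1.15, SE 0.14), and HHEX, a homeobox gene of anterior endoderm, was at 52 and 51.6 against 14 and 21.2 CPM (fold change -1.59). CER1, a secreted antagonist of NODAL, BMP and WNT made by anterior endoderm, was at 2015 and 2073 against 620.3 and 738 CPM (fold change -1.59, SE 0.08). KIT, which ESCs also express, did not differ detectably, at 152 and 167 against 139.6 and 161 CPM. Summed over the 19 genes of the list, the endoderm level was 2806.8 to 2940.0 CPM in WT and 851.6 to 1027.1 CPM in ZNF503 shRNA libraries, and CER1 made up most of these sums.

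The signalling pathways that act on the streak did not move as 1 block. In the NODAL list, 5 of 20 tested genes were higher and 4 lower at 5% FDR, beside 13.1% and 13.8% of all genes. The median of the list was 0.07. NODAL was at 154 and 156 CPM in WT and 151 and 186 CPM in ZNF503 shRNA cells and did not differ detectably (fold change 0.12, SE 0.10). Its feedback inhibitors LEFTY1 and LEFTY2, closely similar neighbours between which reads may be split, were higher by 0.85 and 0.81, and FST, which encodes the activin antagonist follistatin, was at 21.5 and 19.2 against 54.4 and 61.5 CPM (fold change 1.5, SE 0.15). FOXH1, the DNA-binding partner of SMAD2 and SMAD3, was lower (fold change -0.79). The co-receptor gene CFC1, which has a near-identical copy, was at 0.959 and 0.927 against 0.159 and 0.142 CPM and was called lower.

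WNT ligands were mostly lower. Of 11 tested, 6 were lower and 1 higher at 5% FDR, with a median of -1.27. WNT3, the ligand that starts the streak in the mouse, was at 63.2 and 69.9 CPM in WT and 23.4 and 32.5 CPM in ZNF503 shRNA cells (fold change -1.27, SE 0.15). WNT3A was at 3.9 and 3.71 against 0.955 and 0.997 CPM (fold change -1.97). The targets and feedback genes of the pathway were split, with 7 of 24 lower and 3 higher, beside 13.8% and 13.1% of all genes. DKK1 and DKK4, secreted inhibitors of the LRP co-receptors, were lower: DKK4 was at 485 and 495 against 123 and 177 CPM (fold change -1.71, SE 0.12) and DKK1 at 26.8 and 27.1 against 4.77 and 9.16 CPM (fold change -2.02, SE 0.23). NOTUM, which inactivates WNT proteins, was lower (fold change -2.36). AXIN2, the general readout of β-catenin activity, was at 58 and 61.6 against 49.7 and 58.7 CPM and did not differ detectably (fold change -0.15, SE 0.12). LEF1 and APCDD1 were higher, by 1.07 and 1.33. Among 15 receptors 7 were lower, FZD8 the most at -1.53, and 4 were higher, with FZD10 at 1.32 and ROR1 at 1.12.

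BMP genes were lower in 12 of 16 tested and higher in 1, beside 13.8% and 13.1% of all genes, with a median of -0.96. BMP2 was at 24.9 and 26 CPM in WT and 4.23 and 5.65 CPM in ZNF503 shRNA cells (fold change -2.41, SE 0.16). Among genes that respond to BMP, MSX2 was at 6.54 and 6.82 against 1.22 and 1.42 CPM and ID1 at 65.9 and 70.6 against 22.5 and 16.7 CPM (fold changes -2.37 and -1.78). ID3 and ID4 were lower (fold changes -0.97 and -0.98), and ID2 was the member that was higher, by 0.43. The antagonist CHRD (chordin) was lower as well, at 39.7 and 44.2 against 12.6 and 18.3 CPM (fold change -1.47).

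In the FGF list, 7 of 26 tested genes were lower and 3 higher, beside 13.8% and 13.1% of all genes. FGF17, a ligand of the streak, was at 354 and 408 CPM in WT and 56.6 and 68.9 CPM in ZNF503 shRNA cells (fold change -2.61, SE 0.13). FGF4 had a fold change of -0.90 and SPRY4, a feedback inhibitor, of -0.65. FGF2, which ESCs make themselves, was at 56 and 49.9 against 110.2 and 117 CPM (fold change 1.10, SE 0.10), and the feedback phosphatase gene DUSP6 did not differ detectably, at 244 and 242 against 268 and 271 CPM. In the Notch list 3 genes were lower and 3 higher of 20, shares close to the 13.8% and 13.1% of all genes. DLL3, a ligand of presomitic mesoderm that acts inside the cell, was at 19.8 and 22.2 against 4.24 and 3.51 CPM and LFNG, a glycosyltransferase of the segmentation clock, at 29.8 and 32.8 against 8.58 and 8.64 CPM (fold changes -2.40 and -1.86). JAG1 was higher by 0.65.

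The retinoic acid list gave 8 of 16 tested genes lower and none higher at 5% FDR, beside 13.8% and 13.1% of all genes. CYP26A1, the enzyme that breaks down retinoic acid in the streak, was at 658 and 709.8 CPM in WT and 75.3 and 106 CPM in ZNF503 shRNA cells (fold change -2.93, SE 0.13, adjusted p = 2.01e-09). RXRG, a nuclear receptor, was at 3.87 and 4.44 against 0.364 and 0.38 CPM (fold change -3.47), and STRA6, a retinol transporter, was lower (fold change -1.26). LRAT, which esterifies retinol and was in none of the lists, was among the 12 largest rises, at 12 and 14.1 CPM in WT and 108 and 121 CPM in ZNF503 shRNA cells (fold change 3.14, SE 0.12).

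**Figure D3:**
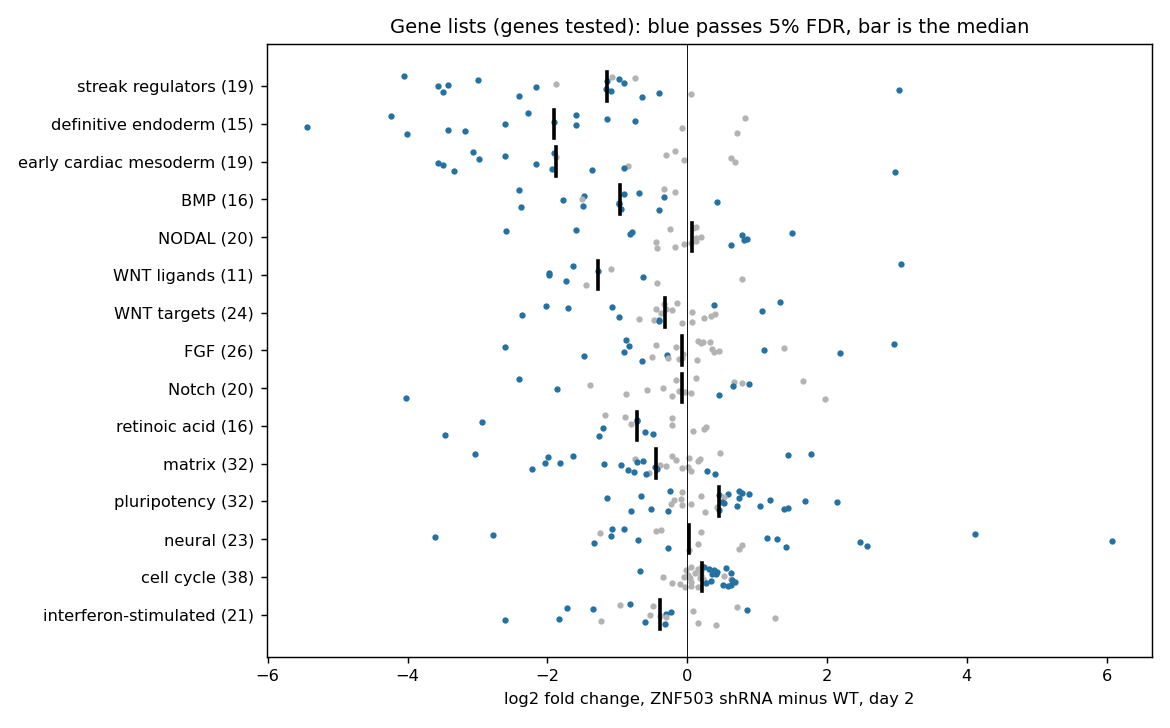
Each point is 1 tested gene of a list and its log2 fold change of ZNF503 shRNA over WT at day 2 is on the horizontal axis, with blue for genes past 5% FDR, grey for the others and a black bar at the median of the list. The medians of streak regulators (-1.15), definitive endoderm (-1.90) and early cardiac mesoderm (-1.88) lie left of 0 and that of pluripotency genes (0.46) lies right of it. Numbers in brackets are genes tested.

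Pluripotency genes were higher in 16 of 32 tested and lower in 6, beside 13.1% and 13.8% of all genes, with a median of 0.46. NANOG, a homeobox gene at the core of the network, was at 50.3 and 49.5 CPM in WT and 115 and 111 CPM in ZNF503 shRNA cells (fold change 1.18, SE 0.10). SOX2 was at 42.4 and 35.7 against 84.9 and 75.5 CPM (fold change 1.04, SE 0.12). POLR3G, an ESC subunit of RNA polymerase III, was at 32.1 and 23.7 against 134 and 114 CPM and was the 1 member called at 4-fold (fold change 2.15, SE 0.15). These 3 genes showed no overlap between groups, and their levels in both groups were below those of day 0. PODXL, the carrier of ESC surface antigens, was higher by 1.69 and the deubiquitinase gene USP44 by 1.44. POU5F1 (OCT4), which stays on in mesendoderm, differed less, at 479.6 and 482 against 679.5 and 679 CPM (fold change 0.50, SE 0.08), and LIN28A did not differ detectably (fold change -0.09). KLF5 and GAL were among the 6 that were lower (fold changes -1.15 and -0.66). The summed level of the 36 genes was 5863.2 to 5944.8 CPM in WT and 7073.2 to 7192.4 CPM in ZNF503 shRNA libraries.

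Neural genes went both ways, with 7 of 23 tested higher and 8 lower, beside 13.1% and 13.8% of all genes. Their median was 0.02. SOX1, a marker of early neuroectoderm, was at 0.377 and 0.596 CPM in WT and 3.02 and 1.99 CPM in ZNF503 shRNA cells, and SOX3 at 0.274 and 0.662 against 2.66 and 2.37 CPM (fold changes 2.47 and 2.57). SIX6, an eye field gene, was at the limit of detection in WT, where each library held at most 3 counts, and at 3.39 and 3.04 CPM in ZNF503 shRNA cells, at least 21.3-fold higher, and it was also higher at day 0 (fold change 3.69). ZIC1 was at 30.5 and 34.2 against 91 and 81.9 CPM (fold change 1.42, SE 0.11). OTX2, which marks the anterior streak as well as the forebrain, was lower, at 266 and 267 against 123 and 128 CPM (fold change -1.09). PAX6 was near the limit of detection in both groups at day 2, and at day 0 was at 4.8 and 3.94 CPM in WT and 0.175 and 0.158 CPM in ZNF503 shRNA cells. The summed neural level of the 34 genes was 1293.7 to 1332.0 CPM in WT and 937.6 to 1014.1 CPM in ZNF503 shRNA libraries, with between 1 and 10 genes at 0 in a library. OTX2 and CDH2 (N-cadherin), both in the list, together fell by more than this sum did, so the lower sum rests on them.

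Several markers of other cell types that such a culture could hold were at or near 0, while other members of the same lists were expressed. The defining endothelial genes CDH5 and PECAM1 were at or near 0 in all 4 libraries, as were the fibroblast genes DCN, LUM and POSTN and the trophoblast and amnion genes TFAP2A and VTCN1. Summed levels of blood and endothelial genes were 287.9 to 293.7 CPM in WT and 303 to 318 CPM in ZNF503 shRNA libraries, and those of amnion and trophoblast genes 166.9 to 169.1 and 161.2 to 161.8 CPM. KDR, described above with the early mesoderm genes, made up most of the blood and endothelial sums. Fibroblast genes summed to 173.3 to 174.4 and 89.15 to 93.64 CPM, mostly from COL1A2 and THY1, of which COL1A2 was lower (fold change -1.99) and THY1 higher (fold change 0.75). Muscle genes summed to 185.5 to 186.5 and 203.4 to 242.7 CPM, and the part of any of these cell types in the results was not tested. At 5% FDR 2 of 13 tested blood and endothelial genes were higher and 1 lower, and of the amnion and trophoblast (11), muscle (12) and fibroblast genes (5) 1 was higher and 2 were lower in each list, beside 13.1% and 13.8% of all genes. TAL1, a blood regulator that was also on at day 0, was at the limit of detection in WT and at 1.43 and 1.14 CPM in ZNF503 shRNA cells, at least 8.53-fold higher. RYR2, the calcium release channel gene, was higher by 1.23 and the sarcomere gene TTN lower (fold change -1.61).

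In the matrix list 15 of 32 tested genes were lower and 4 higher, beside 13.8% and 13.1% of all genes, with a median of -0.45. COL13A1, a membrane collagen gene, was at 108 and 120.4 CPM in WT and 14.1 and 13.7 CPM in ZNF503 shRNA cells (fold change -3.04, SE 0.13). HAS2, which makes the hyaluronan of the early matrix, was at 366 and 368 against 63.7 and 95.5 CPM (fold change -2.22, SE 0.13), and COL5A1 at 122 and 116 against 32.1 and 25.3 CPM (fold change -2.04). COL12A1 and COL14A1 were higher, by 1.77 and 1.44. In the list of the epithelial to mesenchymal transition 9 of 29 tested were lower and 6 higher, with a median of -0.01. CDH1 (E-cadherin) was level, at 243 and 246 against 232 and 254 CPM, while CDH2 (N-cadherin) was at 505 and 514 against 218 and 266 CPM (fold change -1.08, SE 0.09). SNAI1 and SNAI2, repressors of CDH1, were lower (fold changes -0.88 and -1.94), as was ITGA5, the fibronectin receptor subunit (fold change -2.04). The related repressor gene ZEB2 was lower too (fold change -0.64), and ZEB1 had a fold change of 1.11 (adjusted p = 0.00956).

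The largest falls by the rule for named genes included genes outside these lists. RELN, which encodes the secreted protein reelin, was at 20.3 and 21.2 CPM in WT and 0.807 and 0.949 CPM in ZNF503 shRNA cells (fold change -4.61, SE 0.20, adjusted p = 1.67e-09). VWF (von Willebrand factor) was at 24.9 and 32 against 1.25 and 1.61 CPM (fold change -4.38, SE 0.20). CD177, a surface protein found on a subset of definitive endoderm cells, was at 38.7 and 48.3 against 2.4 and 1.71 CPM (fold change -4.31, SE 0.17). These 3 genes were near 1 CPM or below at day 0 in both groups, so that the difference was one of a gene switched on in WT and hardly so in ZNF503 shRNA cells. KCNH5, a potassium channel gene, had a fold change of -4.11, SAMD11 of -4.07, the IL-33 receptor gene IL1RL1 of -4.01, ABCC9, the regulatory subunit gene of a potassium channel, of -3.93, and MYOF (myoferlin) of -3.69. EGFLAM-AS4, an antisense transcript, was at 15.7 and 17.6 against 0.795 and 1.04 CPM, but whether the counting used strand is not stated, so its reads may belong to its partner.

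The largest rises were mainly of genes that were already on at day 0. LHX4, a LIM homeobox gene, was at 8.82 and 7.88 CPM in WT at day 0 and at the limit of detection in WT at day 2, and ZNF503 shRNA cells held 7.14 and 3.94 CPM, at least 36.8-fold higher. HES3 was at 0.342 and 0.132 CPM in WT and 6.87 and 4.08 CPM in ZNF503 shRNA cells (fold change 4.38, SE 0.47), after 13.3 and 15 CPM in WT at day 0. FBP1, an enzyme of gluconeogenesis, SCN9A, a sodium channel gene, TRIML2 and CFAP95 had fold changes of 3.99, 3.99, 3.73 and 3.69. THBS2, a matrix glycoprotein gene, was at 5.41 and 5.83 against 53.3 and 49.8 CPM (fold change 3.21, SE 0.16), close to its day 0 level of 43.1 and 39.6 CPM in WT. SEMA3C, a guidance cue, the metalloproteinase gene MMP24 and the glutamate receptor gene GRIA4 completed the list with 3.47, 3.35 and 3.22.

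HPGD, which inactivates prostaglandins, took a different course. It was at 9.59 and 6.88 CPM in WT and 219.9 and 166 CPM in ZNF503 shRNA cells at day 2 (fold change 4.52, SE 0.17, adjusted p = 4.53e-10), but at day 0 it had been lower in ZNF503 shRNA cells, at 6.2 and 5.42 against 16.1 and 16 CPM (fold change -1.47, adjusted p = 0.0136). The change from day 0 to day 2 thus differed by 6.02 between the lines (adjusted p = 2.9e-08). NKX2-5 shRNA cells at day 2 held 14.3 and 13.6 CPM and ZEB2 shRNA cells 35.6 and 31.9 CPM, all below both ZNF503 shRNA libraries.

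TLE corepressors, the paralog and the neighbours of ZNF503 formed a list of 20, of which 16 were tested. At 5% FDR 5 were lower and 3 higher, beside 13.8% and 13.1% of all genes. TLE2 was at 16 and 14.2 CPM in WT and 2.32 and 1.85 CPM in ZNF503 shRNA cells (fold change -2.82, SE 0.18, adjusted p = 4.66e-08). TLE5, a short member that can oppose the others, was at 195 and 208 against 101 and 103 CPM (fold change -0.98, SE 0.10). The genes for these corepressors are neighbours on chromosome 19. TLE3 and TLE4 were lower (fold changes -0.53 and -0.29) and TLE1 was higher by 0.54. The paralog ZNF703 was at 0.548 and 0.662 CPM in WT and 0.705 and 0.38 CPM in ZNF503 shRNA cells and did not differ detectably.

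Cell cycle genes were shifted slightly upward, with 15 of 38 tested higher, 1 lower and a median of 0.21. For this and the next lists, the shares over all genes at 5% FDR were 13.1% higher and 13.8% lower. The 15 rises were at most 0.69 on the log2 scale, with the replication genes MCM4 at 0.69 and PCNA at 0.63, and MKI67 did not pass the test (fold change -0.10). The 1 lower gene was CCND2, at 482 and 490.3 against 291 and 319 CPM. Of the p53 and stress genes 7 of 24 were higher and 3 lower, and the largest rise was of the death receptor gene FAS at 0.513 and 0.265 against 2.43 and 2.37 CPM (fold change 2.52), while CDKN1A did not pass (adjusted p = 0.108). Interferon-stimulated genes were lower in 9 of 21 and higher in 1, from OAS1, at 0.513 and 0.397 against 0.0682 and 0.0949 CPM (fold change -2.60), to IFITM1, at 935 and 1002 against 867 and 789 CPM (fold change -0.23). Glucose transport and glycolysis genes split 5 to 5 of 21. Of the DNA methylation enzymes 2 of 7 were lower, with fold changes of -0.24 for DNMT3B and -0.63 for TET2. Only 3 of 39 HOX genes were high enough to be tested, of which HOXB2 was lower (fold change -2.62).

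Among imprinted genes 6 of 18 were lower and 5 higher, beside 13.8% and 13.1% of all genes. PEG3, a paternally expressed zinc finger gene, was at 10.9 and 11.5 CPM in WT and 1.45 and 0.759 CPM in ZNF503 shRNA cells (fold change -3.22, SE 0.36), and its difference at day 0 was of the same size (-3.27, adjusted p = 0.00702). It was low in the other lines at day 2 too, at 0.219 and 0 CPM in NKX2-5 and 1.06 and 0.96 CPM in ZEB2 shRNA cells. ZIM2 overlaps PEG3 and may share its reads. DLK1 was lower (fold change -2.36), and MEG3, its neighbour on chromosome 14, was at the limit of detection in ZNF503 shRNA cells, at least 4.76-fold lower than the 0.377 and 0.463 CPM of WT.

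Since ZNF503 shRNA cells were set against only 2 WT libraries, they were also compared directly with the other shRNA lines of the same day. The WT libraries enter these comparisons only through the filter, the scaling and the shared estimate of the spread. Against ZEB2 shRNA cells 131 genes were called higher (0.793%) and 337 lower (2.04%), and against NKX2-5 shRNA cells 269 were called higher (1.63%) and 388 lower (2.35%). These comparisons share the ZNF503 shRNA libraries with the one against WT, so that their values are only set side by side. SOX17 was at 54.6 and 69.7 CPM in NKX2-5 and 51.3 and 66 CPM in ZEB2 shRNA cells, and ZNF503 shRNA cells were lower than both (fold changes -4.07 and -3.99). In the same order, the fold changes of ZNF503 shRNA cells were -5.55 and -4.65 for CXCR4, -3.53 and -3.51 for LHX1, -3.90 and -3.58 for PDGFRA and -2.53 and -2.89 for CYP26A1. NANOG was higher by 1.17 and 1.11 and POLR3G by 2.04 and 1.90.

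Other genes were low in more than 1 line. MESP1 was at 0.237 and 0.264 CPM in NKX2-5 shRNA cells, below the ZNF503 shRNA libraries (fold change 1.16, adjusted p = 0.0395), but at 7.68 and 12.1 CPM in ZEB2 shRNA cells. MESP2, EVX1 and SNAI2 did not differ detectably between ZNF503 and NKX2-5 shRNA cells (adjusted p = 0.659, 0.306 and 0.293) and were lower than in ZEB2 shRNA cells (fold changes -2.65, -2.53 and -2.38). APLNR was at 10.8 and 13.7 CPM in NKX2-5 shRNA cells, and ZNF503 shRNA cells were lower than these (fold change -1.23). TBXT did not differ detectably from either other line (adjusted p = 0.342 and 0.133), with 34.3 and 48.4 CPM in NKX2-5 and 43.4 and 46.6 CPM in ZEB2 shRNA cells. DKK1 was at 11.2 and 9.55 CPM in ZEB2 shRNA cells, and the fold change of ZNF503 shRNA over these was -0.64 (adjusted p = 0.045). In the endoderm list, 12 of 15 genes were lower at 5% FDR than in ZEB2 shRNA cells (14.5% of all genes were) and 11 of 15 lower than in NKX2-5 shRNA cells (19.8% of all genes were). The streak list had 11 of 19 genes lower and 2 higher than in NKX2-5 shRNA cells (median -0.80). The early cardiac mesoderm list had 9 of 19 lower and 5 higher (median -0.72). Against ZEB2 shRNA cells these lists had 13 and 12 genes lower and 1 and 0 higher (medians -0.96 and -2.01). In NKX2-5 shRNA cells themselves, 5 streak and 6 cardiac mesoderm genes were lower than WT, and 4 and 3 were higher. The WNT ligand and matrix lists were low in NKX2-5 shRNA cells too. There 5 of 11 and 19 of 32 genes were lower than WT, beside 2248 of all 16521. Against these cells, ZNF503 shRNA cells had 3 WNT ligands lower and 3 higher. Of the matrix genes 8 were lower and 13 higher (19.8% and 19.7% of all genes were). With ZEB2 shRNA cells as reference, 6 WNT ligands were lower and 2 higher, and 17 matrix genes lower and 6 higher (14.5% and 14.8%).

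The genes of the step from day 0 to day 2 were taken from ZEB2 shRNA cells, whose libraries entered the comparison with WT only through the filter, the scaling and the shared estimate of the spread. In these cells 1039 genes rose (6.16% of 16872 tested) and 752 fell (4.46%) at 4-fold and 10% FDR. Of the 1039 that rose, 615 were lower in ZNF503 shRNA than in WT cells at day 2 (59.2% of the set, beside 13.8% of all genes tested) and 16 were higher, and 213 were lower at 4-fold. Their median was -1.10 over the 1014 that were tested. Of the 752 that fell, 259 were higher in ZNF503 shRNA cells (34.4% of the set, beside 13.1% of all genes tested) and 5 were lower, with a median of 0.93 over 509 tested. The other 243 were too low at day 2 for the test. A gene could pass the filter through the ZNF503 shRNA libraries alone, so the 509 lean toward higher genes. Of 746 fitted with no such filter, 593 lay above 0 and 151 below, with a median of 0.91. The ZNF503 shRNA libraries held more counts in total than the WT libraries, so genes near 0 counts could lean above 0 there too. This fit therefore does not remove the lean. Without the filter on low counts, an alternative chosen after seeing the data, 281 of the 752 were higher, and 170 were without ZNF503 shRNA replicate 1. With sets drawn from NKX2-5 shRNA cells instead, 495 of 797 genes that rose were lower and 277 of 784 that fell were higher.

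**Figure D4:**
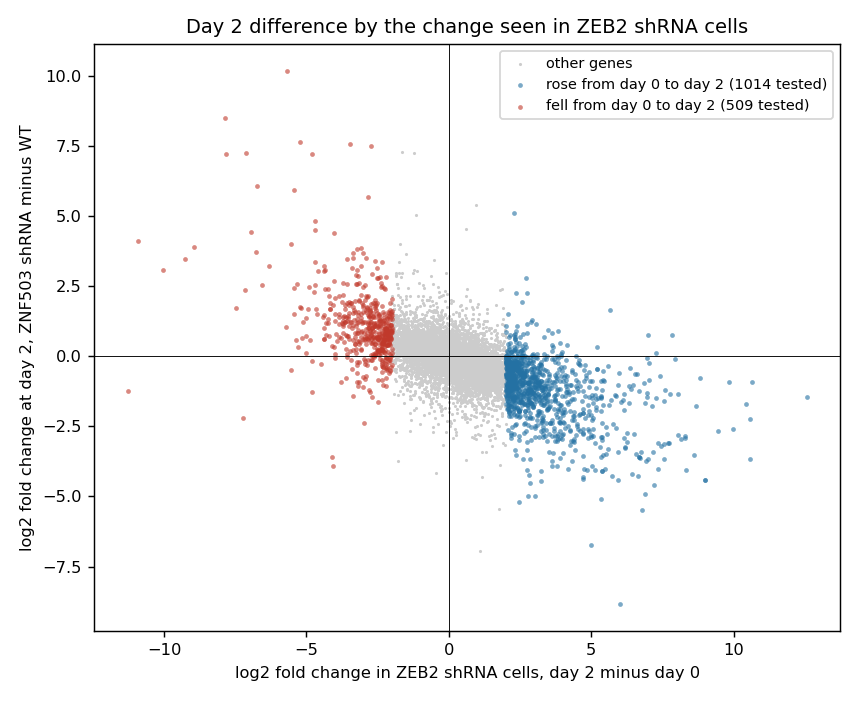
Each point is a gene tested in both comparisons, with its log2 fold change from day 0 to day 2 in ZEB2 shRNA cells on the horizontal axis and its log2 fold change of ZNF503 shRNA over WT at day 2 on the vertical axis. Of the 1014 genes that rose and were tested (blue) 933 lie below 0, and of the 509 that fell and were tested (red) 436 lie above 0. Genes that fell could pass the filter through the ZNF503 shRNA libraries alone, and without the filter (not drawn) 593 of 746 lay above 0. The fit without the filter does not remove a lean of genes near 0 counts, since the ZNF503 shRNA libraries held more counts in total.

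Part of the difference was present before differentiation. At day 0, 223 genes were higher in ZNF503 shRNA cells (1.32%) and 210 lower (1.24%) at 2-fold and 10% FDR. Of the 328 genes called lower at day 2, 206 could be tested at day 0, and 37 were called lower there (11.3% of the day 2 list and 17.6% of the day 0 list) and 11 higher. Of the 135 called higher, 19 were called higher at day 0 (14.1% and 8.52% of these lists) and 7 lower. In the endoderm list 8 of 18 tested genes were lower and 1 higher at day 0 at 5% FDR, beside 3.52% and 4.01% of all genes. GATA6 had no count in either ZNF503 shRNA library at day 0 and was at 0.438 and 0.61 CPM in WT, SOX17 was at 0.567 and 0.203 CPM in WT and 0 and 0.0264 CPM in ZNF503 shRNA cells, and CER1 at 3.3 and 4.73 against 0.197 and 0.185 CPM. These were traces beside the levels of day 2. Genes of the NODAL pathway were lower at day 0 at higher levels: NODAL was at 98.8 and 90.3 CPM in WT and 41.7 and 35.5 CPM in ZNF503 shRNA cells (fold change -1.30, adjusted p = 0.00148) and LEFTY1 at 66 and 54.1 against 17.9 and 12 CPM (fold change -2.01). WNT3 was at 18.4 and 14.9 against 5.57 and 3.85 CPM (fold change -1.83). No gene of the pluripotency list was higher at day 0 at 5% FDR and 1 of 34 was lower.

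Whether the change from day 0 to day 2 differed between the lines was tested in 1 fit of 16 libraries. The change was more negative in ZNF503 shRNA cells for 369 genes (2.13% of 17345 tested) and more positive for 220 (1.27%). For PDGFRA the 2 changes differed by -2.55 (SE 0.15), for CXCR4 by -3.33 (SE 0.26) and for LHX1 by -2.29 (SE 0.57). For NANOG they differed by 1.48 (SE 0.11) and for POLR3G by 2.39 (SE 0.17). The traces of SOX17 and CER1 at day 0 were lower in ZNF503 shRNA cells as well. The change differed by 0.37 for SOX17 (adjusted p = 0.785) and by 2.82 for CER1, which thus rose by a larger ratio in ZNF503 shRNA cells and still ended lower. NODAL and LEFTY1 were lower at day 0 and level or higher at day 2, and their changes differed by 1.43 and 2.88.

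At day 6 the call was stricter than at day 2. At 8-fold and 1% FDR, 165 genes were called higher in ZNF503 shRNA cells at day 6 (1%) and 478 lower (2.91%). Of the 328 called lower at day 2, 32 were called lower at day 6 (9.76% of the day 2 list and 6.69% of the day 6 list) and 9 were called higher. Of the 135 called higher, 2 were called higher at day 6 and 16 lower. At 5% FDR with no fold threshold, of the 234 of these 328 genes that could be tested at day 6, 91 were lower and 59 higher, and of the 86 of the 135, 29 were higher and 35 lower. CXCR4 was at 29.7 and 26.7 CPM in WT and 28.4 and 28.7 CPM in ZNF503 shRNA cells, and LHX1 at 6.47 and 6.66 against 6.18 and 5.96 CPM, so that neither differed detectably. SOX17 had turned around, at 5.4 and 7.41 CPM in WT and 56.1 and 44.8 CPM in ZNF503 shRNA cells (fold change 2.96, adjusted p = 9.83e-07), and so had GATA6 (1.04) and TBX3 (1.93). In the endoderm list 15 of 19 genes were higher at day 6 at 5% FDR and 1 was lower, beside 27.2% and 28.5% of all genes. APLNR, RELN and ISL1 were lower at day 6 as well, with fold changes of -2.43, -2.23 and -3.98.

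**Figure D5:**
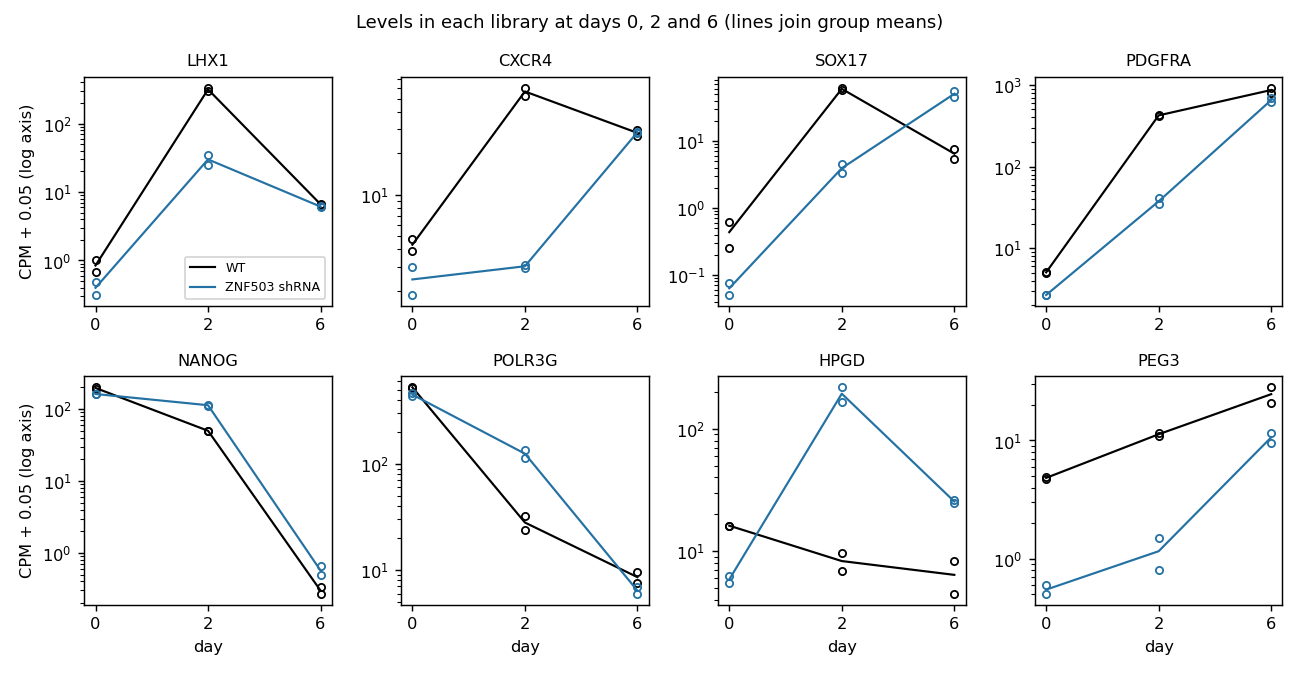
Levels of 8 genes in CPM + 0.05 on a log axis at days 0, 2 and 6 in WT (black) and ZNF503 shRNA cells (blue), with an open circle for each library and lines through the group means. LHX1, CXCR4, SOX17 and PDGFRA lie below WT at day 2, SOX17 lies above WT at day 6, NANOG and POLR3G lie above WT at day 2, and PEG3 lies below WT on all 3 days.

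Promoters of the called genes were read for short letter runs that belong to factors of this step, in the 250 bases before the start of each gene in RefSeq (GRCh38.p14). A promoter was held for 12562 of the 16521 genes tested, 226 of the 328 called lower and 99 of the 135 called higher. The GATA letters AGATAAG, on either strand, were in 10 of the 226 (4.42%), in 3 of the 99 (3.03%) and in 167 of all 12562 (1.33%). The octamer ATGCAAAT, read by POU factors, was in 4 of the 99 called higher (4.04%), 4 of the 226 called lower (1.77%) and 1.52% of all. The T-box letters GGTGTGA were in 1.77% of the promoters called lower, 3.03% of those called higher and 2.36% of all. In the same order, the TCF/LEF letters CTTTGAT were in 2.21%, 2.02% and 1.26%, and the FOXH1 letters AATCCACA in 1.33%, 1.01% and 0.334%, all on either strand. Several of the matched genes were near the floor. The octamer genes ADTRP, ATP6V1C2 and FA2H had means of 0.349 to 0.694 CPM in ZNF503 shRNA cells. The GATA genes CDK15, LMOD2, TEX101 and DACT3 had means of 0.235 to 0.607 CPM in WT. The counts of called genes are small, a match is a description of the letters and no sign of binding, and this was not tested. The windows below are shown because they hold the GATA letters in 3 genes that were called lower, ISL1 at 2.02 and 2.58 CPM in WT, SLC8A1 at 15.6 and 14.3 against 2.19 and 2.75 CPM (fold change -2.64) and KLF8 at 88.8 and 114 against 21.4 and 25.9 CPM (fold change -2.11), and the octamer in LMO3, called higher at 8.56 and 7.81 against 50.7 and 36.9 CPM (fold change 2.42), with the letters in capitals and each window on the strand of its gene. SLC8A1, KLF8 and LMO3 were chosen after their values were seen.
ISL1, chr5:51383388-51383447, plus strand: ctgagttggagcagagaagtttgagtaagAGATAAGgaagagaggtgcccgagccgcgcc
SLC8A1, chr2:40512472-40512531, minus strand: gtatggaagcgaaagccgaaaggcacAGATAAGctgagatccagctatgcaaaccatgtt
KLF8, chrX:56232171-56232230, plus strand: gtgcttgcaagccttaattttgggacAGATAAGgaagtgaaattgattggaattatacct
LMO3, chr12:16608387-16608446, minus strand: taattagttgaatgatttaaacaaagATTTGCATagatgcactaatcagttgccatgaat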

How the data were processed

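Total RNA depleted of ribosomal RNA was sequenced from paired ends with a stranded kit. Per the labels and methods the authors aligned reads to hg19 (GRCh37) with TopHat2 2.0.14, Bowtie2 2.2.1.0 and SAMtools 0.1.19.0 and counted reads per RefSeq gene region with RSeQC. The deposited table holds these raw counts, with no normalization. Whether counting used strand is not stated in the sources used here. A further 4 columns were not used.

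Of 41627 accessions, 40285 (96.8%, holding 97.1% of counts) matched a symbol, and each of 23189 symbols was represented by its row with the largest total over 30 libraries. All 8 day 2 libraries (4 groups of 2) were fitted in edgeR 4.0.16 (R 4.3.3) with TMM factors, filterByExpr and the quasi-likelihood F test, and p-values were adjusted by Benjamini-Hochberg. The SE was obtained from the size of each log2 fold change and its F statistic (size over root F). Calls used the thresholds of the study (4-fold and 10% FDR at day 2, 2-fold and 10% at day 0, 8-fold and 1% at day 6). Day 0 and day 6 were fitted in the same way, and the difference of the changes in 1 fit of 16 libraries. In a day 2 library of 14630405 to 87850810 counts, 3 counts correspond to 0.205 to 0.0341 CPM, and a group whose libraries all held at most 3 counts was set to that floor, which covers counting error only. Named genes were those near ZNF503 or its partners, the 12 largest rises and 12 largest falls among called genes without overlap and with a mean of at least 5 CPM, and members of 28 gene lists. These members and lists were chosen with earlier results of these data known. Alternatives were DESeq2 1.42.0, edgeR's exact test, other scaling, filters, thresholds and rows, a replicate block, the 4 libraries alone, 1 fit of all libraries, each replicate left out, and counts thinned to the shallowest library, the last chosen after seeing the data. The fits were tested on simulated counts first. Sequences are from RefSeq (GRCh38.p14), whereas the files use GRCh37. Some genes are not reported here.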

Additional observations from a re-analysis of the deposited data

Results flagged for a closer look

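The change from day 0 to day 2 was set against that of WT cells by the interaction term of 1 edgeR fit. It was more negative in ZNF503 shRNA cells for 369 genes and more positive for 220. Among the largest falls of day 2, the changes differed by -4.80 for RELN, -4.50 for ABCC9, -4.34 for VWF, -3.98 for SAMD11, -3.83 for CD177, -3.49 for APLNR, -3.33 for CXCR4, -3.19 for KCNH5 and -2.60 for MYOF, all on the log2 scale. Among the largest rises, they differed by 6.02 for HPGD, 5.39 for LHX4, 4.12 for SEMA3C, 3.78 for HES3, 3.71 for TRIML2, 3.62 for SCN9A, 3.53 for FBP1, 3.44 for CFAP95, 3.13 for MMP24, 3.11 for THBS2, 2.49 for LRAT and 2.27 for GRIA4. These genes are listed because their changes differed. That most of their day 2 difference was absent at day 0 therefore follows from this choice. SOX17, IL1RL1 and EGFLAM-AS4 were also among the largest falls of day 2 and are not in this list. RELN, VWF and CD177 were low at day 0 in both groups, where a difference could hardly show. HPGD and SEMA3C were lower in ZNF503 shRNA cells at day 0 and higher at day 2, so that their differences between the changes exceed those at day 2. For RELN and ABCC9 the difference between the changes was also larger in size than the day 2 fold change.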

How the results depend on the processing

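The counts of 135 and 328 called genes were within 1.5 times of these values under the other tests, scalings, filters, rows and subsets of libraries that were run, and none of the named genes changed direction where it had been called. The thresholds moved them: at 2-fold and 10% FDR they were 521 and 986, and at 5% FDR with no fold threshold 2171 and 2272. The count of 259 higher genes among those that fell from day 0 to day 2 in ZEB2 shRNA cells was 170 to 239 with 1 library left out. The median of the NODAL list (0.07 as reported) was -0.03 to 0.02 with 1 library left out, with -0.02 without WT replicate 2. The median of the FGF list was 0.08 and that of the Notch list 0.01 in 1 fit of all libraries, and the Notch median was 0.02 without the filter on low counts and -0.08 to 0.02 with 1 library left out, so the sign of these 3 medians was not stable. The cause was not tested. Other lists depended on the processing too: of the list counts and medians under all alternatives, 1010 stayed the same, 160 moved and 6 reversed. Of the values of named genes under all alternatives, 6488 kept their side of the threshold, 298 no longer passed and 96 passed newly. With a replicate block, 138 genes were called higher and 323 lower, 130 and 340 against ZEB2 shRNA cells, 270 and 388 against NKX2-5 shRNA cells, and 215 and 365 for the difference of the changes. The labels do not say whether same-numbered libraries belong together. The deviations of WT and ZNF503 shRNA libraries correlated at 0.018 and those of the other pairs of groups at 0.020 to 0.176. Such a correlation cannot decide whether they shared a culture or batch. Thinning to the shallowest library, chosen after seeing the data, kept the counts within the same range. Genes near 1 CPM and below rest on few counts in the shallower libraries.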

Other observations

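Over the 23 chromosomes with tested genes, the median log2 fold change of ZNF503 shRNA over WT lay between -0.12 and 0.10 at day 2 and between -0.10 and 0.12 at day 0.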
